A study of Homo sapiens with 9 samples.

Results

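The 47 genes described here build and run the lysosome and the autophagosome: 2 transcription factors, 5 membrane glycoproteins, 7 peptidases, 8 enzymes that cut sugar chains, 6 lipid-handling proteins, 1 ion channel, 9 genes of the proton pump, 4 genes of the cargo receptor and ATG8 group, and 5 genes of autophagosome formation. The rule that picks them is a list of gene symbols and sets no condition on measured values, although the list was drawn up with earlier results of these data known. All 47 were found among the 17492 genes of the table, and all 47 were among the 12832 that passed the filter on low counts. The cells were HCCLM3, a human liver cancer line in long use and noted for metastasis, labelled wild type in all 9 samples, from each of which RNA was sequenced. The groups were a DMSO vehicle control, the plant flavonol quercetin at 50 µM and quercetin at 100 µM, with 3 libraries each. How long the cells were exposed is not given in the labels. No label says that replicates were separate cultures, so the p-values measure the spread between these libraries, which may be technical. Totals ran from 20061136 to 21599805 estimated counts per library.

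A lysosome is an acidic organelle in which hydrolases break down proteins, sugar chains and lipids. Its acidity comes from the V-ATPase, a proton pump with a membrane sector (V0) and a cytosolic sector (V1). The basic helix-loop-helix factors TFEB and TFE3 bind a short palindrome, known as the CLEAR element, near the start sites of many lysosomal genes, and mTORC1 at the lysosomal surface keeps them out of the nucleus when nutrients are plentiful. In autophagy, ULK1 kinase starts the formation of a double membrane, ATG8 proteins are attached to it, receptors such as p62 load cargo, and the closed vesicle fuses with a lysosome.

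Promoters are shown because some members hold a short sequence there that the rule did not use. The RefSeq promoter table (GRCh38.p14, 250 bases before to 50 after a start site, 300 in all) held 34 of the 47 members and lacked 13. A set of 3 nested palindromes were searched, CACGTG, TCACGTGA, and the latter with a G before and a C after it. Each reads the same on both strands, and each longer one contains the shorter ones. CACGTG occurred in the promoters of 8 of 34 members (23.5%), which were NEU1, CTSD, CD63, LAMP1, ATP6V0D1, GAA, MCOLN1 and CTSA, against 8.78% of 27305 genes in the table. TCACGTGA occurred in 5 of 34 members (14.7%), against 1.18% of all genes. The 10-base form occurred in GAA and MCOLN1 (5.88% of 34), against 0.421% of all genes. A match is a stretch of letters and not a measured binding site. The stretches below are printed 5′ to 3′ from RefSeq, with the palindromes in capitals, and all end at or before the RefSeq start site. LAMP1 holds 5 matches within the 250 bases before its start, and MCOLN1 holds the 8-base and the 10-base form close together. The first of the 10-base matches in GAA is shown, beside windows from the pump gene ATP6V0D1, the sialidase NEU1 and the protease CTSD.
LAMP1, chr13:113296989-113297238, plus strand: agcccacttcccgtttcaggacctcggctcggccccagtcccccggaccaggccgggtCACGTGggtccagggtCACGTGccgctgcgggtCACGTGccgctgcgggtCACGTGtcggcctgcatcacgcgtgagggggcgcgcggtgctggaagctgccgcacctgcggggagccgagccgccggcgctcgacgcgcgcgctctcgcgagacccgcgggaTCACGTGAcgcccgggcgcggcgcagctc
MCOLN1, chr19:7522524-7522623, plus strand: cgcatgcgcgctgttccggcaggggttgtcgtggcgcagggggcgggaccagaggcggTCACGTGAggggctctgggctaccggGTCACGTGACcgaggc
GAA, chr17:80101483-80101532, plus strand: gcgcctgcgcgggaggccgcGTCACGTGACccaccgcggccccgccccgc
ATP6V0D1, chr16:67481190-67481237, minus strand: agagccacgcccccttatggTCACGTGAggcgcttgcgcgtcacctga
NEU1, chr6:31862922-31862967, minus strand: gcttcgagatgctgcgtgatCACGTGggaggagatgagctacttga
CTSD, chr11:1763949-1763994, minus strand: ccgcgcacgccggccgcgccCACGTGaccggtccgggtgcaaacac

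Levels were compared between genes as TPM, which is counted per transcript length. CTSL (1803 TPM, mean of 9 libraries), PSAP (1793), CD63 (1787) and SQSTM1 (1651) were the 4 members above 1000 TPM. CTSL is a cysteine protease, PSAP the precursor of the saposins that help degrade sphingolipids, CD63 a tetraspanin of late endosomes, and SQSTM1 the autophagy receptor p62. A further 24 members lay between 100 and 1000 TPM, 18 between 10 and 100 TPM, and only TFEB, at 2.26 TPM, below 10. Its relative TFE3 stood at 87.2 TPM, and the calcium channel MCOLN1 at 12.3 TPM. The median over the 47 was 114 TPM. Together the members took 1.35% to 1.59% of all TPM in the control libraries, 1.24% to 1.27% at 50 µM and 1.12% to 1.54% at 100 µM. The ranges of the control and of 50 µM did not overlap.

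**Figure D1:**
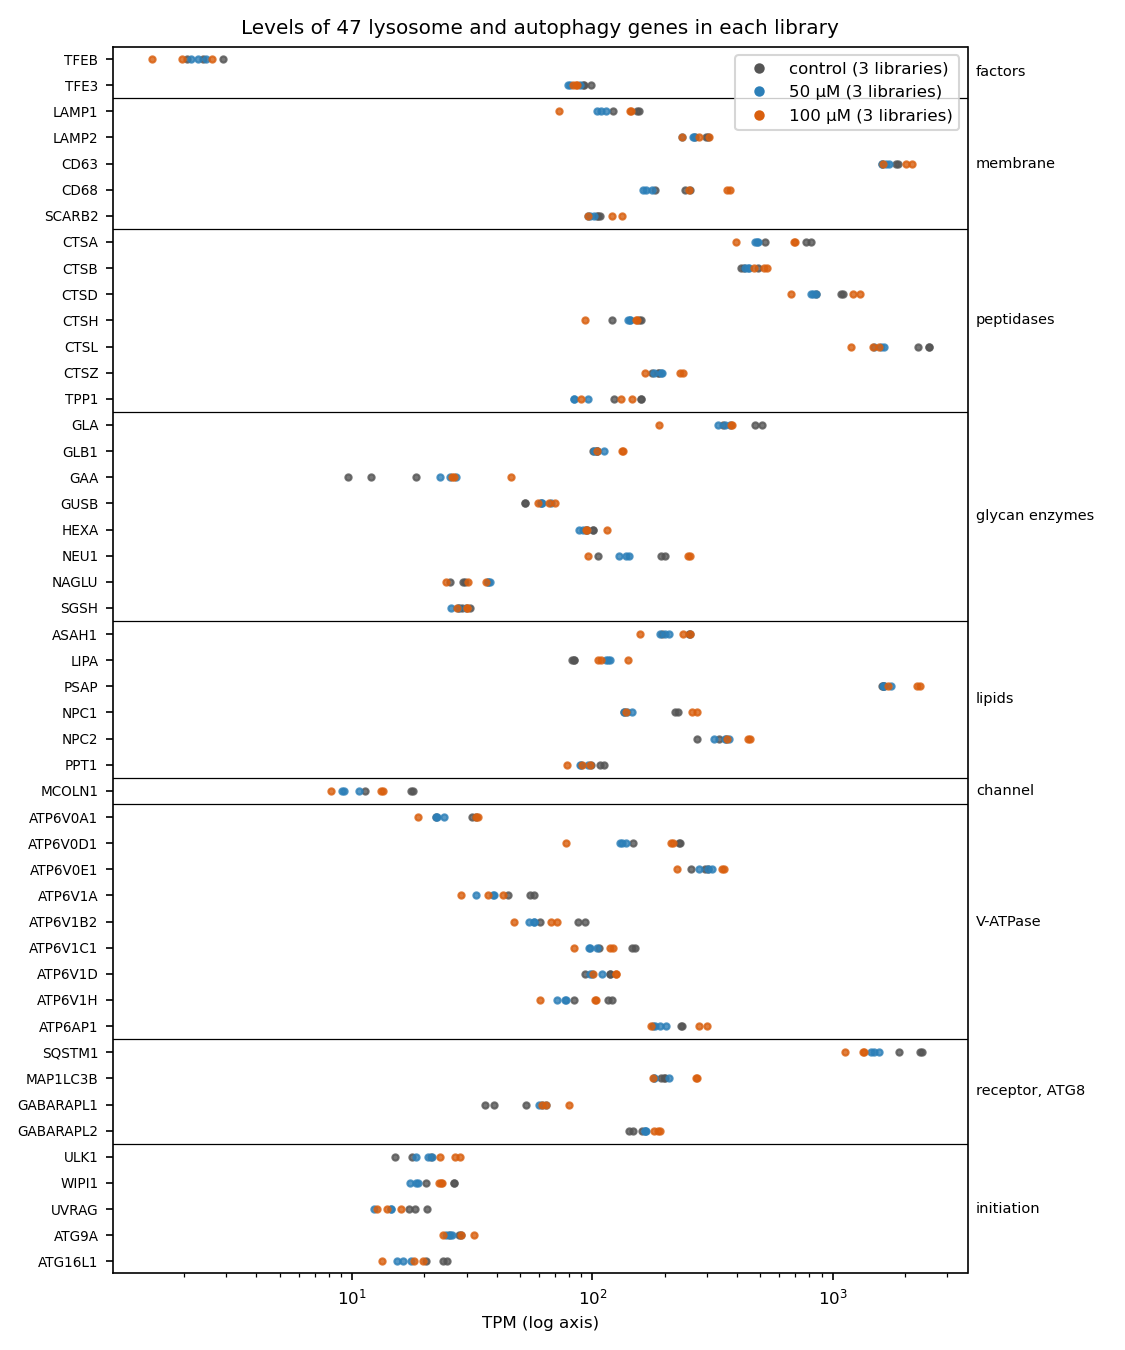
Level of each of the 47 members in TPM on a log axis, 1 point per library, with the control in grey, 50 µM in blue and 100 µM in orange, ordered by role. CTSL, PSAP, CD63 and SQSTM1 lie above 1000 TPM, and TFEB lies below 10 TPM in every library.

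The line kept markers of its label in part. The keratin KRT8 stood at 3889 TPM (mean of 9), and the liver factors HNF4A and FOXA2 were detected in every library, while 4 of 14 liver markers averaged under 1 TPM. Of 12 macrophage and leukocyte markers 11 averaged under 1 TPM, and their sum was 3.69 to 4.31 TPM in the control, 3.52 to 4.95 at 50 µM and 4.28 to 5.40 at 100 µM. The defining macrophage genes CSF1R, MRC1, MARCO and C1QC were at 0.11 TPM or less in every library. Of 9 fibroblast markers 7 averaged under 1 TPM, and their sum, mostly LUM at 72.4 TPM, was 57.8 to 87.4 TPM in the control, 66.2 to 73.7 at 50 µM and 63.7 to 109.6 at 100 µM. Of 9 endothelial markers 7 averaged under 1 TPM, and their sum, mostly PECAM1 at 12.6 TPM, was 20.0 to 22.4 TPM in the control, 10.4 to 12.3 at 50 µM and 11.1 to 14.5 at 100 µM. The liver markers summed to 5870 to 6814 TPM in the control, 5227 to 5370 at 50 µM and 4091 to 6135 at 100 µM, and KRT8 and KRT18 made up most of it. Of 12 liver markers tested in edgeR 3 were called higher and 3 lower at 50 µM, and 4 higher and 2 lower at 100 µM. ALB ranged from 0.76 to 1.99 TPM with DMSO, from 5.62 to 9.57 with the lower dose and from 6.73 to 13.96 with the higher. FGB ranged from 2.74 to 6.33, from 27.37 to 29.02 and from 15.3 to 55.66 TPM in the same order. Other liver markers went the other way. KRT18 ranged from 1951 to 2203, from 1467 to 1486 and from 1008 to 1751 TPM. APOB ranged from 1.22 to 1.37, from 0.24 to 0.27 and from 0.25 to 0.41 TPM. The part of these lists in the results below was not tested. In such bulk samples fewer cells of a type and less RNA per cell cannot be told apart.

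In 2 libraries the members deviated together from the rest of the group. The chi-square per gene between control replicate 1 and each of replicates 2 and 3 was 28.2 and 28.1 (3.63 between replicates 2 and 3), and between 100 µM replicate 3 and each of replicates 1 and 2 it was 85.0 and 87.2 (5.10). Control replicate 1 was the lowest control for 35 of the 47 members (74.5%), against 43.1% of all genes tested. At 100 µM replicate 3 was the lowest library for 37 members (78.7%), against 43.5% of all genes. All 9 proton pump genes, all 5 membrane glycoproteins and MCOLN1 were lowest in control replicate 1 within the control and in replicate 3 within 100 µM. For the sialidase NEU1, control replicate 1 held 160 CPM against 298 and 316 in the other controls, and 100 µM replicate 3 held 164 CPM against 389 and 405. CPM here are estimated counts scaled to a common library total with the TMM method. ATP6V0D1, a subunit of the membrane sector of the pump, was 1.60-fold lower in control replicate 1 and 2.51-fold lower in 100 µM replicate 3 than the mean of the other 2 libraries of the group. The cholesterol exporter NPC1 was 1.69-fold and 1.77-fold lower in the same libraries. The acid glucosidase GAA went the other way, at 1.63-fold and 1.89-fold higher, as did the ATG8 protein GABARAPL1, at 1.36-fold and 1.39-fold higher. Across the 47 members the deviations of the 2 libraries had a Pearson correlation of 0.79 and a Spearman correlation of 0.79, against 0.57 and 0.57 over all 12832 genes. These are descriptions across genes that share 2 libraries. What set these libraries apart was not tested. Comparisons with the control are given below with all 9 libraries and, where the call of a member changed, without these 2, which also lowers the measured spread. The 2 were picked from these data, and leaving them out raises the group means of members that were lowest in them. Between the doses this is given as counts and for some members.

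**Figure D2:**
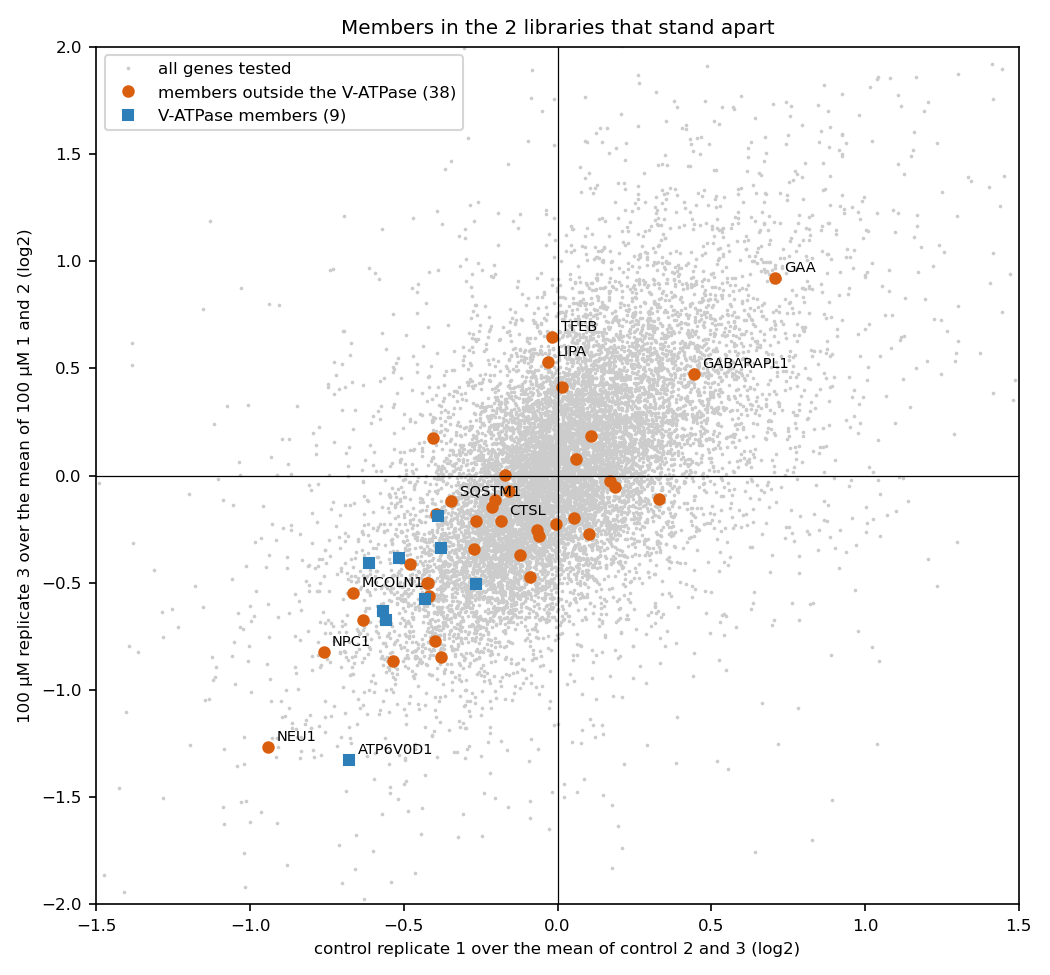
Deviation of control replicate 1 from the mean of the other controls (x axis, log2) against that of 100 µM replicate 3 from the other 100 µM libraries (y axis, log2), with all genes tested in grey, members outside the V-ATPase in orange and V-ATPase members in blue; genes beyond the axes are not drawn. Both values are below 0 for 33 of 47 members (70.2%) and for 34.9% of all genes, and all 9 V-ATPase members lie in the lower left.

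At 50 µM against the control, 3 members rose and 5 fell. NAGLU, which trims heparan sulfate, the acid lipase LIPA and GABARAPL1 were higher, and the proteases CTSL and TPP1, the receptor SQSTM1, and UVRAG and ATG16L1 of autophagosome formation were lower. Among all genes tested 5.28% were called higher and 6.31% lower by edgeR at an adjusted p under 0.05, so 3 of 47 is close to the background and 5 of 47 somewhat above it. The median log2 fold change of the members was -0.12, with 33 of 47 below 0, and the median of all genes was 0.0033. The calls rested on most libraries of the contrast: when control replicate 2 or 3, or 1 library at 50 µM, was omitted, edgeR called 0 members, with 5 to 6 higher and 6 to 8 lower at an unadjusted p under 0.05, and called 88 to 171 of all genes. Without control replicate 1 it called 6 higher and 13 lower (11.1% and 11.2% of all genes), and without 100 µM replicate 3 it called 6 higher and 15 lower (17.8% and 19.4%). With both left out 8 were higher and 25 lower, against 29.4% and 28.1% of all genes, and all 8 earlier calls were among them.

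At 100 µM against the same controls, 11 members rose and 5 fell. Those that rose were CD68, CTSB, GLB1, GAA, GUSB, LIPA, PSAP, NPC2, GABARAPL1, GABARAPL2 and ULK1, of which 7 are hydrolases, saposins or lipid-handling proteins of the lysosomal interior. CTSL, ATP6V1A, SQSTM1, UVRAG and ATG16L1 fell. The background was 10.7% of all genes higher and 10.3% lower, so that 11 of 47 was above it and 5 of 47 close to it. The median member moved by 0.11 on the log2 scale (all genes 0.00087). Without 1 library at a time the counts were 10 higher and 8 lower (control replicate 1), 4 and 2 (control 2), 5 and 3 (control 3), 9 and 3 (50 µM 1), 10 and 3 (50 µM 2), 9 and 4 (50 µM 3), 7 and 5 (100 µM 1), 6 and 3 (100 µM 2), and 18 and 5 (100 µM 3). Left out together, the 2 libraries that stood apart gave 22 higher and 13 lower, against 24.4% and 24.3% of all genes, with all 16 earlier calls among them.

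The 2 doses share their controls. Of the members 2 (LIPA and GABARAPL1) were called higher and 4 (CTSL, SQSTM1, UVRAG and ATG16L1) lower at both doses, 2 (NAGLU and TPP1) were called at 50 µM alone, 10 at 100 µM alone, and 29 in no comparison. The direct contrast of 100 µM with 50 µM called only CD68, higher, against 2.25% of all genes called higher and 1.89% lower, and 1 of 47 is close to that background. It called 0 members lower in edgeR, with 12 higher and 2 lower at an unadjusted p under 0.05, and DESeq2 called 5 higher and 0 lower. Most of the calls at 1 dose alone were therefore not shown to differ between the doses. The median difference was 0.17 (all genes 0.012), with 39 of 47 members above 0. Without any 1 of the 50 µM libraries the count of members called was 0 (6 to 8 higher and 0 lower at an unadjusted p under 0.05), without control replicate 1 it was 2 higher (3.55% of all genes), without 100 µM replicate 3 it was 17 higher (14.4%), and without both libraries that stood apart it was 29 higher and 3 lower, against 23.8% of all genes each way.

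The members' counts were read against all genes under other call rules too. At 50 µM 11.6% of all genes were called in either direction and 32.2% had an unadjusted p under 0.05, against 8 and 19 of the 47 members. At 100 µM the share called was 21% of all genes, and 36.6% had an unadjusted p under 0.05, against 16 and 19 members. Between the doses the shares were 4.15% and 22%, against 1 and 14 members. Groups that did not overlap were found at 50 µM for 8 members higher and 12 lower (24.4% and 24.6% of all genes), at 100 µM for 11 and 5 (17.3% and 18.6%), and between the doses for 11 and 3 (13.3% and 14.4%). DESeq2 called 5 members higher and 8 lower at 50 µM (9.41% and 10.6% of all genes, 20% together), 12 and 5 at 100 µM (13.4% and 12.9%, 26.3% together), and 5 and 0 between the doses (5.53% and 5.24%, 10.8% together). A fit of only the control and 100 µM libraries called 3 higher and 2 lower (4.42% and 3.31%, 7.73% together), and that of the control and 50 µM 6 and 12 (15.7% and 17.4%, 33.1% together). That of both doses called CD68 alone, higher (1.4% and 0.553%, 1.96% together). With the replicate number as a block the shares of all genes higher and lower were 1.55% and 1.78% at 50 µM (3.33% together), 6.96% and 6.07% at 100 µM (13% together), and 0.631% and 0.218% between the doses (0.849% together). Over the fits without 1 library the shares of all genes ran from 0.358% to 17.8% higher and 0.327% to 19.4% lower at 50 µM, from 4.57% to 15% higher and 3.86% to 15.3% lower at 100 µM, and from 0.242% to 14.4% higher and 0.0935% to 13.3% lower between the doses.

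**Figure D3:**
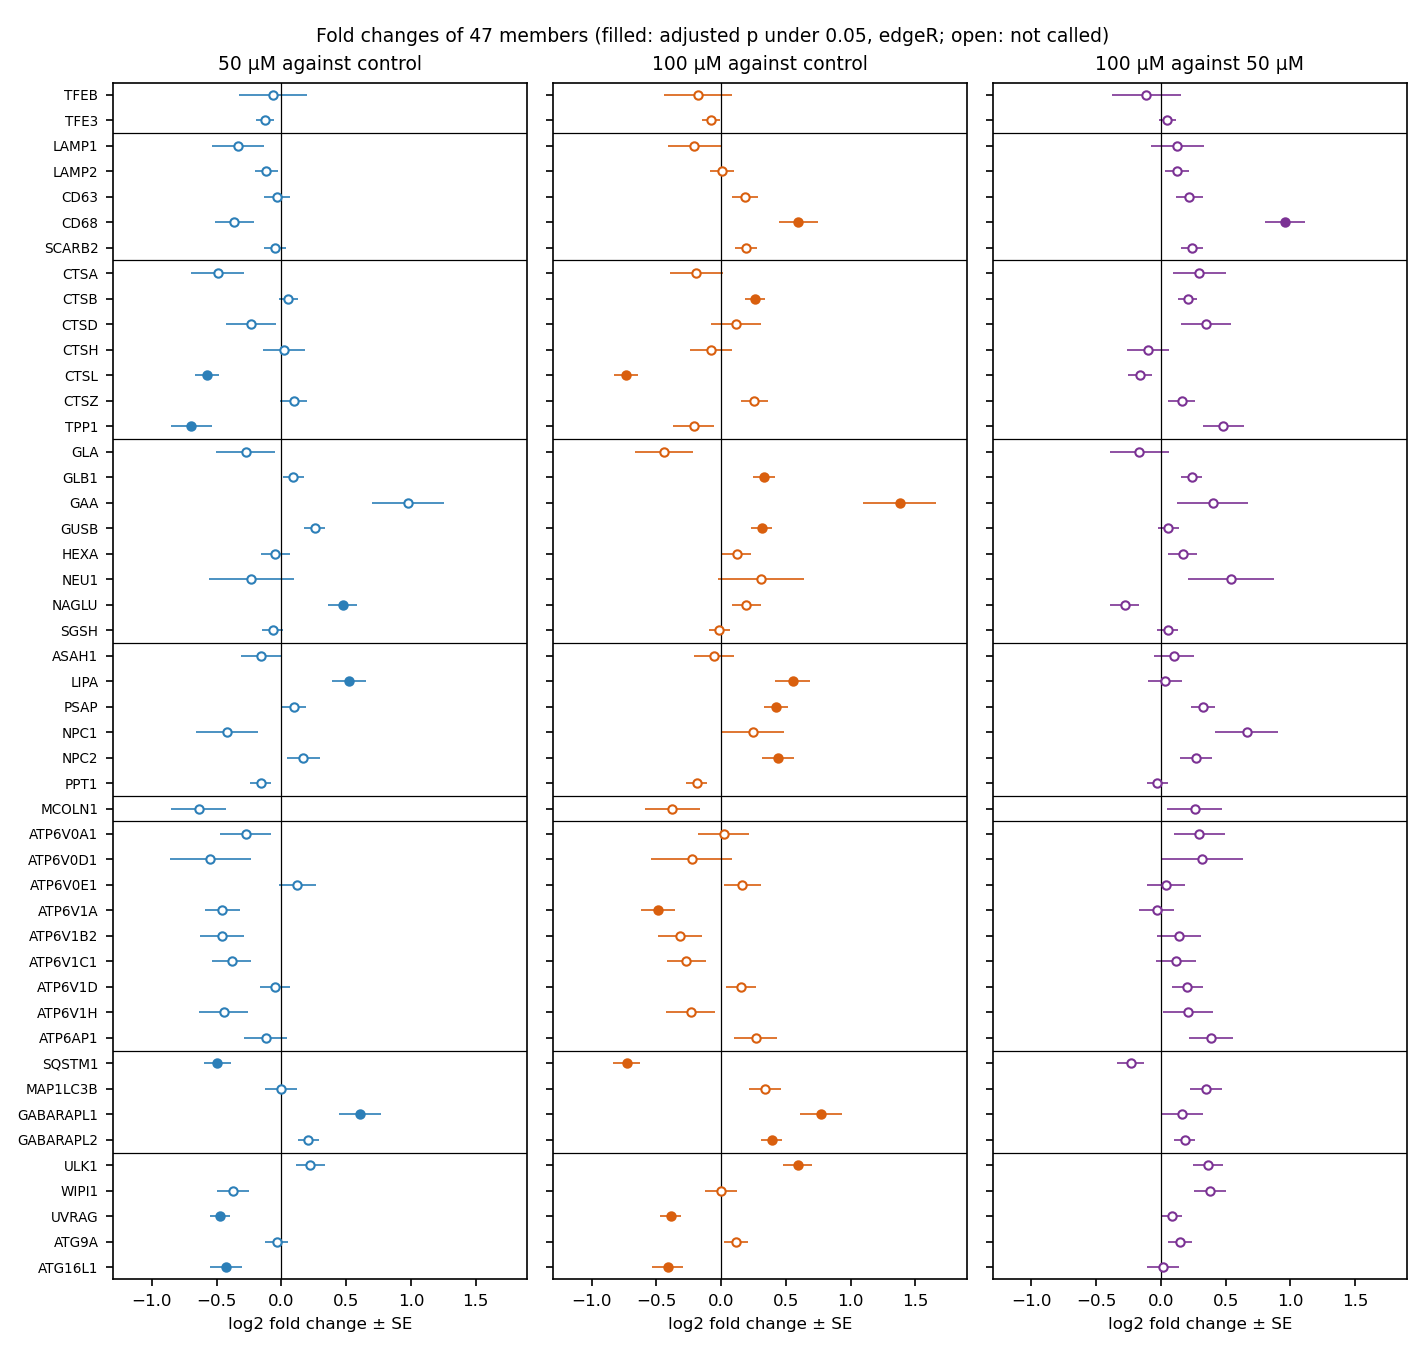
Log2 fold change ± SE of each member in the 3 comparisons (x axis), ordered by role, with filled points for members past the edgeR test at an adjusted p under 0.05. The panel of 50 µM against the control holds 8 filled points, that of 100 µM against the control 16 and that of 100 µM against 50 µM 1, CD68.

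**Figure D4:**
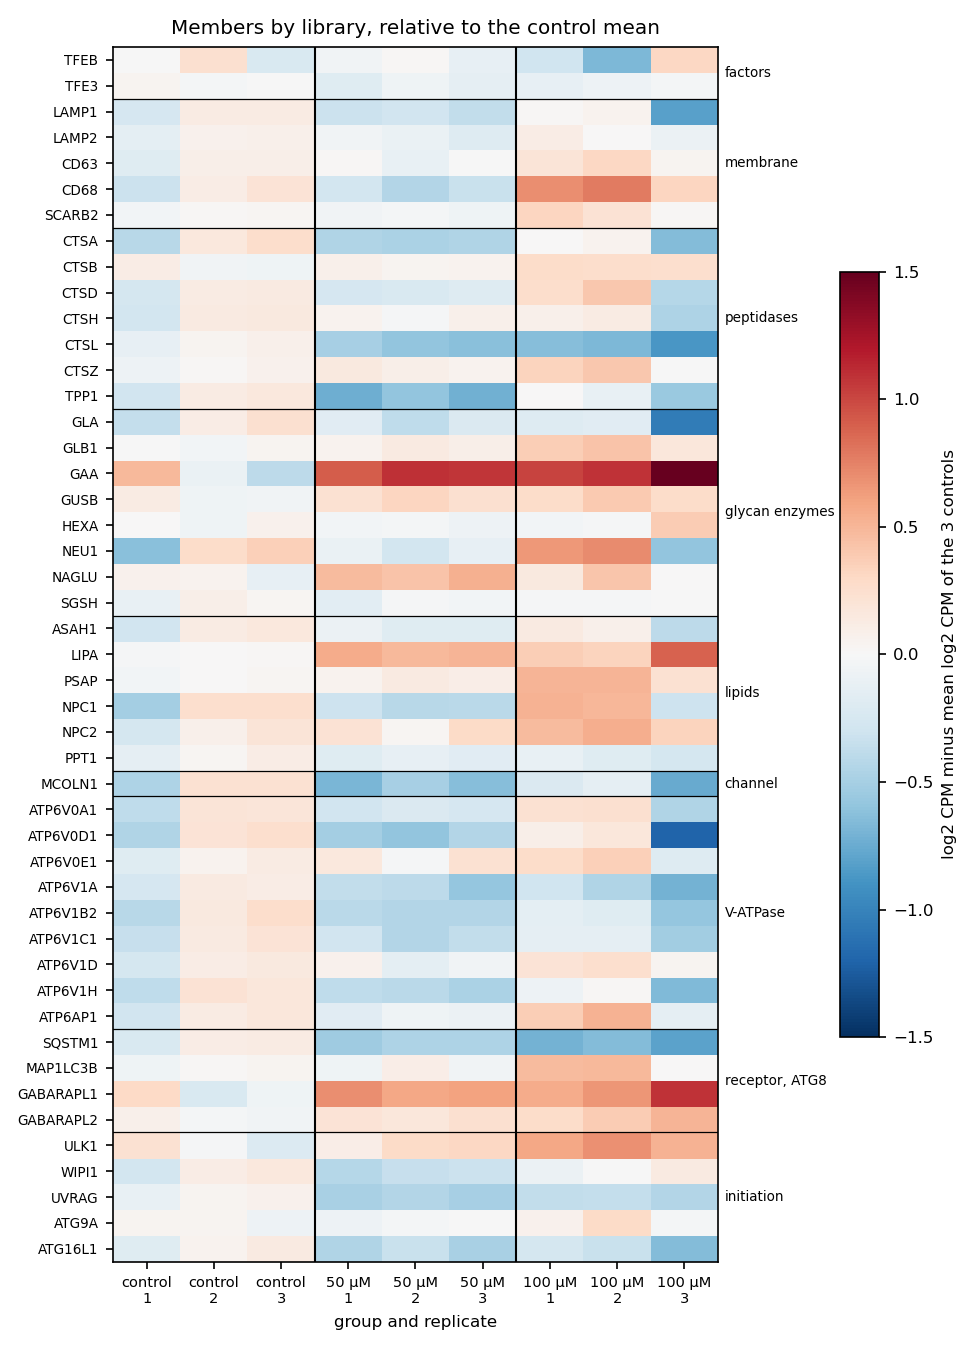
Level of each member in each library as log2 CPM minus the mean log2 CPM of the 3 controls, from blue (lower) to red (higher), with the colour scale ending at 1.5 on either side (GAA in 100 µM replicate 3 lies beyond it). Control replicate 1 and 100 µM replicate 3 are blue in most rows, and GAA, GABARAPL1 and LIPA are red in all 6 treated libraries.

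Neither transcription factor was called. TFEB was measured at 2.42, 2.87 and 2.08 CPM in control replicates 1 to 3, at 2.35, 2.46 and 2.23 at 50 µM, and at 1.98, 1.53 and 3.01 at 100 µM. The groups overlapped throughout, and its low level leaves an SE of 0.26 on the log2 scale. TFE3 ranged from 138 to 145 CPM over the controls, from 124 to 136 over the 50 µM libraries and from 130 to 139 over the 100 µM libraries. Only control and 50 µM did not overlap. Its log2 difference was -0.13 ± 0.07 at 50 µM (edgeR adjusted p = 0.23) and -0.08 ± 0.07 at 100 µM (edgeR adjusted p = 0.44). For these 2 genes edgeR called 0 changes in any comparison, also at an unadjusted p under 0.05, and DESeq2 called 0.

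Among the membrane glycoproteins CD68 stood out. It is a heavily glycosylated relative of the LAMP proteins that is abundant in macrophages and present in other cells. The 12 macrophage and leukocyte markers summed to the low levels given above, with ITGAM (1.04 to 2.01 TPM over the 9 libraries) the highest by mean. LYZ ranged from 0.56 to 0.83 TPM with DMSO, from 0.18 to 1.32 with 50 µM quercetin and from 0.91 to 1.78 with 100 µM quercetin. CD163 ranged from 0.19 to 0.79, from 0.13 to 0.24 and from 0.09 to 0.42 TPM in the same order. Both were among the 11 markers that averaged under 1 TPM. In edgeR 0 of the 4 markers tested were called at 100 µM against the control (0 also at an unadjusted p under 0.05 and with DESeq2), with a median log2 difference of 0.46. Their part in the levels of CD68 was not tested. CD68 was measured at 137, 186 and 199 CPM in the control, at 142, 127 and 136 at 50 µM, and at 278, 296 and 215 at 100 µM. All libraries at 100 µM lay above all others, and the 50 µM libraries overlapped control replicate 1. CD68 rose 1.51-fold at 100 µM (log2 0.60 ± 0.15, edgeR adjusted p = 0.0237) and was 1.94-fold higher at 100 µM than at 50 µM (0.96 ± 0.15, edgeR adjusted p = 0.0130). At 50 µM its difference from the control was -0.36 ± 0.15 (edgeR adjusted p = 0.14). The first call was lost without control replicate 2, 100 µM replicate 1 or 100 µM replicate 2, and the other without any 1 of the 50 µM libraries, with edgeR adjusted p up to 0.0799 and 0.0834. Without both libraries that stood apart the differences were 0.59, 1.08 and, at 50 µM, -0.50 (edgeR adjusted p below the threshold in each).

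LAMP1 and LAMP2, the main proteins of the lysosomal membrane coat, CD63, and SCARB2, which carries glucocerebrosidase to the lysosome, were not called with all 9 libraries. LAMP1 was measured at 129, 168 and 168 CPM in the control, at 123, 126 and 120 at 50 µM and at 156, 159 and 87.4 at 100 µM. Every 50 µM library lay below every control, and 100 µM replicate 3 lay below all 8 other libraries. Its difference at 50 µM was -0.34 ± 0.20 (edgeR adjusted p = 0.28), and -0.44 without the 2 libraries that stood apart, where it was called lower. The levels of LAMP2, CD63 and SCARB2 differed from the control by -0.12 to 0.19 on the log2 scale at either dose. Without the 2 libraries that stood apart LAMP2 was called lower at 50 µM (-0.17), and CD63 (0.18) and SCARB2 (0.26) were called higher at 100 µM.

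Peptidases moved in different directions. CTSL, which cleaves proteins in the lysosome and also processes other cathepsins, was measured at 1561, 1755 and 1792 CPM in the control, at 1201, 1131 and 1102 at 50 µM, and at 1088, 1062 and 928 at 100 µM. All 6 treated libraries lay below all controls. CTSL fell 1.49-fold at 50 µM (-0.57 ± 0.09, edgeR adjusted p = 0.0102) and 1.66-fold at 100 µM (-0.73 ± 0.09, edgeR adjusted p = 0.00125). The call at 100 µM held in each of the 9 fits that left out 1 library, with log2 values from -0.78 to -0.66. That at 50 µM was lost in 5 of them, as for all members, with an edgeR adjusted p of 0.0670 at most over its alternatives. The authors' table places CTSL at chr9:87726085-87731469 (GRCh38.p13).

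TPP1, an aminopeptidase whose loss causes a childhood storage disease of neurons, was measured at 194, 257 and 263 CPM in the control, at 141, 156 and 143 at 50 µM, and at 236, 219 and 161 at 100 µM. The 50 µM libraries were below all 6 others, and the 100 µM libraries overlapped the controls. TPP1 fell 1.62-fold at 50 µM (-0.70 ± 0.16, edgeR adjusted p = 0.0247), the largest fall among the members in that comparison. At 100 µM the difference was -0.21 ± 0.16 (edgeR adjusted p = 0.35). The contrast of the doses gave 0.48 ± 0.16 (edgeR adjusted p = 0.11), and 0.63 without the 2 libraries that stood apart, where it passed. An antisense gene overlaps TPP1 in the annotation.

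CTSB, an abundant cysteine protease, was measured at 840, 747 and 745 CPM in the control, at 817, 798 and 807 at 50 µM, and at 939, 935 and 921 at 100 µM. The 100 µM libraries were above all others and close together. CTSB rose at 100 µM (0.26 ± 0.08, edgeR adjusted p = 0.0363), and the call was lost in 7 of the 9 fits without 1 library, all but those without control replicate 1 or 100 µM replicate 3 (edgeR adjusted p up to 0.14 over all alternatives). The aspartic protease CTSD was measured at 787, 1033 and 1041 CPM in the control, at 794, 811 and 827 at 50 µM and at 1140, 1257 and 701 at 100 µM. It was not called, and its lowest library of all was 100 µM replicate 3. Without the 2 libraries that stood apart CTSD was lower at 50 µM (-0.34) and higher at 100 µM (0.22). CTSA, which protects NEU1 and a galactosidase in a complex, gave -0.49 ± 0.20 at 50 µM (edgeR adjusted p = 0.13), with every 50 µM library below every control. CTSH and CTSZ were not called with all 9 libraries. When the 2 libraries that stood apart were omitted, CTSA was called lower at both doses (-0.66 and -0.17), CTSZ higher at 100 µM (0.34), CTSB higher at 50 µM too (0.13), and TPP1 lower at 100 µM too (-0.18).

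GAA, the enzyme that degrades glycogen in the lysosome and is missing in Pompe disease, showed the largest difference of the members. Its levels were 29.3, 19.6 and 16.02 CPM in the control, with 39.3, 44.8 and 44.1 at 50 µM, and 42.3, 44.3 and 82.5 at 100 µM. All treated libraries lay above all controls, and 100 µM replicate 3 was far above the other 5. GAA rose 2.60-fold at 100 µM (1.38 ± 0.28, edgeR adjusted p = 0.00942). At 50 µM the difference was 0.98 ± 0.28 and narrowly missed the threshold (edgeR adjusted p = 0.0506). Without 100 µM replicate 3 the value at 100 µM was 1.00 and stayed past the test, as it did in all 9 such fits. Without both libraries that stood apart the differences were 1.27 at 50 µM and 1.29 at 100 µM, both past the test, and 0.02 between the doses. GAA lies at chr17:80101535-80119881 in the authors' table (GRCh38.p13), and its promoter window carries the 10-base palindrome printed above.

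The other enzymes of sugar chains gave smaller values. The β-glucuronidase GUSB was measured at 58.6, 51.3 and 51.6 CPM in the control, at 62.9, 67.0 and 63.3 at 50 µM and at 65.0, 70.5 and 65.3 at 100 µM. Controls were below all treated libraries. GUSB rose at 100 µM (0.31 ± 0.08, edgeR adjusted p = 0.0246) and gave 0.26 ± 0.08 at 50 µM (edgeR adjusted p = 0.0643). GLB1, a β-galactosidase that also serves as a stain for senescent cells, was measured at 119, 116 and 123 CPM in the control, at 123, 131 and 126 at 50 µM and at 154, 160 and 134 at 100 µM, and rose 1.26-fold at 100 µM (0.33 ± 0.08, edgeR adjusted p = 0.0205). Its 100 µM libraries lay above all 6 others. The calls of GUSB and GLB1 were each lost without control replicate 2, control replicate 3 or 100 µM replicate 2, and that of GLB1 also without 100 µM replicate 1. Over all alternatives, limma included, the adjusted p was up to 0.11 for both. For GLB1 that value came from limma on log2 TPM, and the largest edgeR adjusted p was 0.0816.

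NAGLU was measured at 31.2, 30.9 and 27.3 CPM in the control, at 41.2, 40.2 and 42.9 at 50 µM and at 32.9, 39.6 and 29.8 at 100 µM. Its 50 µM libraries were above all 6 others, which overlapped each other. NAGLU rose 1.39-fold at 50 µM (0.47 ± 0.11, edgeR adjusted p = 0.0277), and at 100 µM the difference was 0.19 ± 0.11 (edgeR adjusted p = 0.24). The contrast of the doses gave -0.28 ± 0.11 (edgeR adjusted p = 0.18). NEU1, which removes sialic acid, was not called in edgeR with all 9 libraries and an SE of 0.33 at either dose, and was called lower at 50 µM (-0.47) and higher at 100 µM (0.38) without the 2 libraries that stood apart. GLA, HEXA and SGSH were not called with all 9 libraries. With those 2 omitted, GLA was called lower at both doses (-0.42 and -0.35), GUSB higher at 50 µM too (0.34) and NAGLU higher at 100 µM too (0.33).

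Of the 6 lipid-handling members 3 rose at 100 µM and 1 at 50 µM. LIPA, which frees cholesterol and fatty acids from lipoprotein lipids, was measured at 96.4, 98.1 and 98.6 CPM in the control, at 144, 137 and 139 at 50 µM and at 126, 123 and 180 at 100 µM. The controls were closely spaced and below all treated libraries. LIPA rose 1.43-fold at 50 µM (0.52 ± 0.13, edgeR adjusted p = 0.0356) and 1.47-fold at 100 µM (0.55 ± 0.13, edgeR adjusted p = 0.0188). The value at 100 µM fell to 0.35 without 100 µM replicate 3 and remained past the test (edgeR adjusted p = 0.00182), but missed the threshold when control replicate 2 or 3 was omitted (edgeR adjusted p 0.0698 at most). IFIT2 overlaps LIPA on the other strand.

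PSAP was measured at 1992, 2060 and 2092 CPM in the control, at 2131, 2247 and 2198 at 50 µM and at 2920, 2923 and 2399 at 100 µM. Each 100 µM library was above all others. PSAP rose 1.34-fold at 100 µM (0.42 ± 0.09, edgeR adjusted p = 0.0125), a call lost only without control replicate 2 among the fits without 1 library (edgeR adjusted p 0.0629 at most). NPC2, which hands cholesterol to NPC1, was measured at 97.4, 123 and 133 CPM in the control, at 136, 119 and 143 at 50 µM and at 163, 170 and 147 at 100 µM. It rose 1.36-fold at 100 µM (0.44 ± 0.12, edgeR adjusted p = 0.0336), where all 3 libraries lay above the other 6. That call held in 3 of 9 fits without 1 library and was lost without control replicate 1 or 2, 50 µM replicate 1 or 3, or 100 µM replicate 1 or 2 (edgeR adjusted p up to 0.0852).

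NPC1 was measured at 295, 501 and 501 CPM in the control, at 338, 314 and 317 at 50 µM and at 605, 593 and 338 at 100 µM. Control replicate 1 and 100 µM replicate 3 lay near the 50 µM libraries, and no comparison passed (edgeR adjusted p = 0.26 at 50 µM, 0.50 at 100 µM and 0.15 between the doses). Without those 2 libraries NPC1 was lower at 50 µM (-0.62), higher at 100 µM (0.27) and higher at 100 µM than at 50 µM (0.89). The ceramidase ASAH1 and the thioesterase PPT1 were not called with all 9 libraries. In the fit of the other 7, ASAH1 was called lower at 50 µM (-0.28), and PPT1 lower at 50 µM (-0.21) and 100 µM (-0.20).

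MCOLN1, a channel that releases calcium from the lysosome, was measured at 10.6, 17.1 and 17.1 CPM in the control, at 9.06, 10.4 and 9.35 at 50 µM, and at 12.5, 13.2 and 8.65 at 100 µM. The 50 µM libraries lay below all controls. The difference was -0.64 ± 0.21 at 50 µM (edgeR adjusted p = 0.0769, past the test in DESeq2) and -0.38 ± 0.21 at 100 µM (edgeR adjusted p = 0.22). Without the 2 libraries that stood apart it was called lower at 50 µM (-0.82) and at 100 µM (-0.40).

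**Figure D5:**
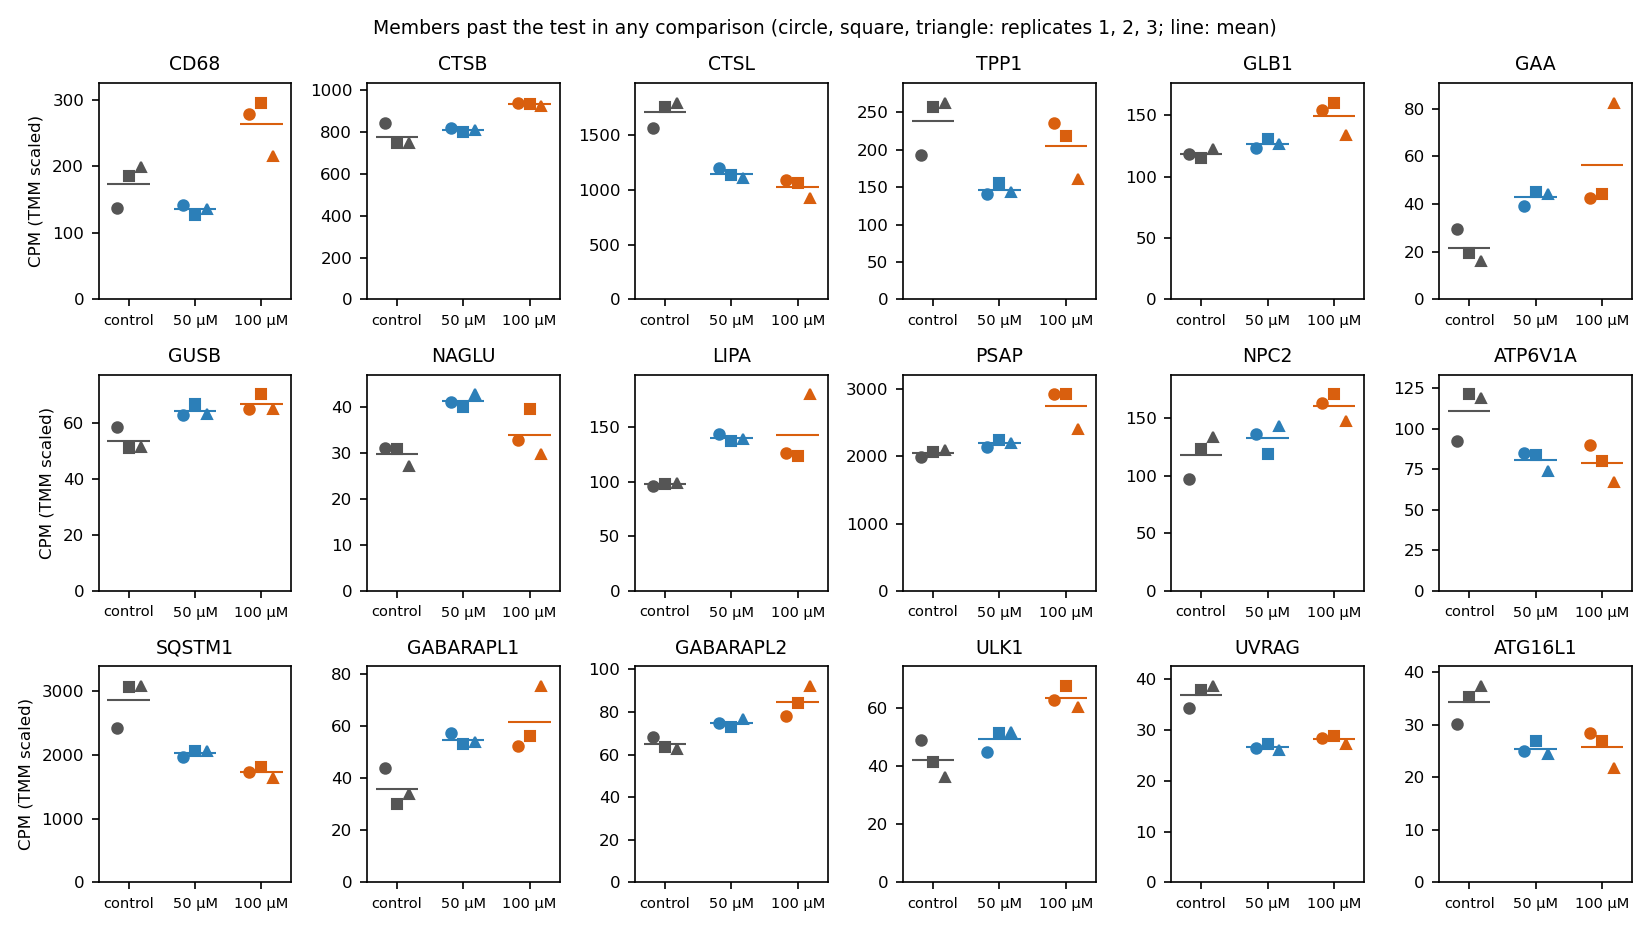
Level in CPM (y axis from 0) of the 18 members called in any comparison, for the control, 50 µM and 100 µM (x axis), with circle, square and triangle for replicates 1, 2 and 3 and a line at the mean. CTSL, SQSTM1, UVRAG and ATG16L1 lie lower in all treated libraries than in all controls, and CD68 lies highest at 100 µM.

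Of the 9 V-ATPase members 1 was called, ATP6V1A, the catalytic subunit of the cytosolic sector. It was measured at 92.3, 121 and 119 CPM in the control, at 85.2, 83.6 and 73.6 at 50 µM and at 89.6, 80.3 and 67.0 at 100 µM. All treated libraries lay below all controls. ATP6V1A fell 1.40-fold at 100 µM (-0.49 ± 0.13, edgeR adjusted p = 0.0315) and gave -0.45 ± 0.13 at 50 µM (edgeR adjusted p = 0.0555). The call at 100 µM was lost without control replicate 2 or 3, 50 µM replicate 1 or 2, or 100 µM replicate 2 (edgeR adjusted p up to 0.13).

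At 50 µM edgeR called 0 of the 9 pump genes, with 4 lower at an unadjusted p under 0.05 and 1 by DESeq2. Their median difference was -0.38, and 8 of 9 were below 0. The membrane-sector gene ATP6V0D1 gave -0.55 ± 0.31, and the cytosolic-sector genes ATP6V1B2, ATP6V1C1 and ATP6V1H, for parts of its head and stalk, gave -0.46 ± 0.17, -0.38 ± 0.15 and -0.45 ± 0.19 (edgeR adjusted p from 0.10 to 0.25). ATP6V0E1 gave 0.12 ± 0.14. At 100 µM against 50 µM edgeR called 0 pump genes, with 1 higher when p was left unadjusted (p under 0.05) and 0 by DESeq2.

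Calls among the pump genes changed with the 2 libraries that stood apart. Without them 8 of 9 were called lower at 50 µM, 8 of 9 were called higher at 100 µM than at 50 µM, and against the control at 100 µM 2 were higher and 4 lower. All 9 were lowest of their group in these 2 libraries. Leaving the 2 out therefore shifts 50 µM downward against both other groups by construction. This shift alone does not set each sign or call. In that fit ATP6V0E1 gave 0.05 at 50 µM against the control and ATP6V1A gave 0.07 between the doses, neither of them called. The 8 lower at 50 µM ran from -0.16 (ATP6V1D) to -0.73 (ATP6V0D1), with ATP6V1A at -0.56, and ATP6V0E1 was the exception. At 100 µM ATP6V0E1 (0.24) and ATP6AP1 (0.31) were higher, and ATP6V1A (-0.49), ATP6V1B2 (-0.36), ATP6V1C1 (-0.29) and ATP6V1H (-0.21) lower. Among all genes the shares in that fit were 28.1% lower at 50 µM and 23.8% higher between the doses. ATP6V0D1 shows the layout: 108, 170 and 176 CPM in the control, with 103, 98.2 and 109 at 50 µM, and 158, 166 and 64.1 at 100 µM. Control replicate 1 lay among the 50 µM libraries, and 100 µM replicate 3 lay below every other library. The same layout, with all 3 libraries at 50 µM below control replicates 2 and 3 and 100 µM replicates 1 and 2, held for 22 of 47 members and for 19.3% of all genes tested. This order was looked for after the values were seen. For TPP1 and WIPI1 the 50 µM libraries lay below all 6 others, as for 4.33% of all genes.

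SQSTM1 encodes p62, which binds ubiquitin and ATG8 proteins and is itself degraded by autophagy. Its levels were 2424, 3068 and 3090 CPM in the control, with 1972, 2061 and 2062 at 50 µM and 1739, 1811 and 1633 at 100 µM. Controls were above all treated libraries, and the 50 µM libraries above those at 100 µM. SQSTM1 fell 1.41-fold at 50 µM (-0.49 ± 0.10, edgeR adjusted p = 0.0199) and 1.66-fold at 100 µM (-0.73 ± 0.10, edgeR adjusted p = 0.00224). Between the doses the difference was -0.23 ± 0.10 (edgeR adjusted p = 0.22). The call at 100 µM held in all 9 fits without 1 library, with values from -0.83 to -0.67, and that at 50 µM was lost in 5 of them (edgeR adjusted p up to 0.11). MGAT4B and MRNIP overlap SQSTM1 on the other strand.

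ATG8 proteins are the small ubiquitin-like tags of the autophagosome. GABARAPL1 was measured at 43.8, 30.3 and 34.0 CPM in the control, at 57.6, 53.2 and 54.0 at 50 µM and at 52.4, 56.4 and 75.6 at 100 µM. Treated libraries lay above all controls, and the highest was 100 µM replicate 3. GABARAPL1 rose 1.52-fold at 50 µM (0.61 ± 0.16, edgeR adjusted p = 0.0411) and 1.71-fold at 100 µM (0.77 ± 0.16, edgeR adjusted p = 0.0110). At 100 µM the call was lost only without control replicate 3 among the fits without 1 library (edgeR adjusted p up to 0.0536). At 50 µM it was also lost without 100 µM replicate 2 (edgeR adjusted p up to 0.16 over all alternatives).

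GABARAPL2 was measured at 68.0, 63.6 and 62.6 CPM in the control, at 74.6, 72.9 and 76.6 at 50 µM and at 78.2, 84.0 and 92.3 at 100 µM. The 3 groups did not overlap. GABARAPL2 rose 1.31-fold at 100 µM (0.39 ± 0.08, edgeR adjusted p = 0.0103, lost without control replicate 3 at 0.0534) and gave 0.21 ± 0.08 at 50 µM (edgeR adjusted p = 0.12), and 0.25 without the 2 libraries that stood apart, where it was called. MAP1LC3B, the LC3 protein most used as an autophagosome marker, was measured at 186, 196 and 199 CPM in the control, at 185, 207 and 187 at 50 µM and at 269, 272 and 195 at 100 µM. It gave 0.34 ± 0.12 at 100 µM (edgeR adjusted p = 0.0780), just past the threshold in DESeq2 (adjusted p = 0.0441). Replicate 3 at 100 µM lay among the controls, and without the 2 libraries that stood apart MAP1LC3B was called higher at 100 µM (0.46). MAP1LC3B has a near-identical copy, MAP1LC3B2, so reads could be split between them.

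ULK1 was measured at 49.1, 41.7 and 36.4 CPM in the control, at 45.1, 51.4 and 52.0 at 50 µM and at 63.0, 67.9 and 60.5 at 100 µM. The 100 µM libraries lay above all others, and the 50 µM libraries overlapped the controls. ULK1 rose 1.51-fold at 100 µM (0.59 ± 0.12, edgeR adjusted p = 0.00806), a call that held in all 9 fits without 1 library with values from 0.49 to 0.72. At 50 µM the difference was 0.22 ± 0.12 (edgeR adjusted p = 0.21; 0.35 and called without the 2 libraries that stood apart), and between the doses it was 0.37 ± 0.11 (edgeR adjusted p = 0.10).

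UVRAG and ATG16L1 fell at both doses. UVRAG, a partner of the class III lipid kinase complex, was measured at 34.2, 37.8 and 38.6 CPM in the control, at 26.4, 27.2 and 26.1 at 50 µM and at 28.5, 28.8 and 27.2 at 100 µM. All treated libraries lay below all controls and close together. UVRAG fell 1.39-fold at 50 µM (-0.47 ± 0.08, edgeR adjusted p = 0.0113) and 1.31-fold at 100 µM (-0.39 ± 0.08, edgeR adjusted p = 0.00918, lost without control replicate 2 at up to 0.0562). ATG16L1, part of the enzyme that attaches ATG8 proteins to lipid, was measured at 30.1, 35.3 and 37.5 CPM in the control, at 24.9, 27.01 and 24.4 at 50 µM and at 28.5, 27.01 and 21.7 at 100 µM. ATG16L1 fell 1.35-fold at 50 µM (-0.43 ± 0.12, edgeR adjusted p = 0.0499) and 1.33-fold at 100 µM (-0.41 ± 0.12, edgeR adjusted p = 0.0395), with no overlap between control and treated libraries. The calls of ATG16L1 were kept in 2 (50 µM) and 3 (100 µM) of 9 fits without 1 library. At 100 µM the call did not survive the omission of control replicate 2 or 3, any 50 µM library or 100 µM replicate 2, and at 50 µM also without 100 µM replicate 1 (edgeR adjusted p up to 0.19 and 0.15). WIPI1, a lipid-binding scaffold, and ATG9A, a membrane carrier, were not called in edgeR with all 9 libraries. WIPI1 gave -0.38 ± 0.13 at 50 µM (edgeR adjusted p = 0.0759, DESeq2 adjusted p = 0.0484). With the 2 libraries that stood apart omitted, WIPI1 was called lower at 50 µM (-0.49) and ATG9A higher at 100 µM (0.20).

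The members with the palindrome in their promoters were compared by description only. None of the 8 was called at 50 µM in edgeR, with 1 higher and 2 lower when p was left unadjusted (p under 0.05) and 1 each way by DESeq2, and at 100 µM 1 was called, GAA. Their median difference was -0.29 at 50 µM, -0.04 at 100 µM and 0.31 between the doses. The 26 members without a match gave -0.06, 0.17 and 0.17. Of these 26 edgeR called 2 higher and 4 lower at 50 µM, and 8 higher and 3 lower at 100 µM. Among all genes tested 11.6% were called in either direction at 50 µM and 21% at 100 µM. In control replicate 1 and in 100 µM replicate 3, 7 of the 8 were the lowest of their group. So were 18 and 19 of the 26 without a match, and 10 and 11 of the 13 members not in the promoter table. Median deviations were -0.52 and -0.72 on the log2 scale for the 8, against -0.19 and -0.20 for the 26. The exception among the 8 was GAA, which has the 10-base form and was highest in both libraries. MCOLN1, the other member with that form, was lowest in both.

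Beyond the 47, 178 further genes of the pathway were tested, in 6 lists chosen with earlier results of these data known. At 50 µM 15 rose and 14 fell, at 100 µM 26 rose and 9 fell, and between the doses 1 rose and 2 fell. Called in either direction were 16.3%, 19.7% and 1.69% of the 178, against 11.6%, 21% and 4.15% of all genes tested. By direction, all genes gave 5.28% higher and 6.31% lower at 50 µM, and 10.7% and 10.3% at 100 µM. Between the doses they gave 2.25% and 1.89%. The median differences were -0.04, 0.03 and 0.10. Of 30 further hydrolases and activators 9 rose and 1 fell at 100 µM, among them the cysteine protease CTSS, from 29.6 ± 5.81 to 63.2 ± 3.72 CPM (SD, n = 3; 2.13-fold, edgeR adjusted p = 0.00125), the asparaginyl protease LGMN (1.36-fold) and the acid nuclease DNASE2 (1.46-fold). At 50 µM 7 of the 30 rose and 3 fell, with the ganglioside activator GM2A 1.46-fold lower. The share of the 30 called in either direction was 33.3% at either dose, above those of all genes. CTSC was the 1 hydrolase lower at 100 µM than at 50 µM (1.31-fold, edgeR adjusted p = 0.0201). Of 23 further membrane proteins 4 rose and 1 fell at 100 µM, with LAPTM4A higher by 0.58, LAPTM4B by 0.46 and the sialomucin CD164 by 0.37 on the log2 scale. At 50 µM LAPTM4B (1.55-fold) and LAPTM4A (1.40-fold) rose and GPNMB fell 1.74-fold. The shares of the 23 called were 13% at 50 µM and 21.7% at 100 µM, close to those of all genes.

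The sorting machinery that delivers hydrolases showed 1 rise at 50 µM and 3 at 100 µM among 24 genes, with 0 falls in edgeR (3 and 1 lower without adjustment at p under 0.05, and 2 and 0 by DESeq2). The shares called, 4.17% and 12.5%, were below the 11.6% and 21% of all genes. GNPTG, a subunit of the enzyme that makes the mannose 6-phosphate tag, rose 1.41-fold and 1.68-fold, and SUMF1, which activates sulfatases, 1.47-fold at 100 µM, beside the adaptor GGA2 at 1.18-fold. Of 18 further pump subunits and partners 5 fell at 50 µM and 0 rose in edgeR (2 at an unadjusted p under 0.05 and 1 with DESeq2), and 2 rose and 2 fell at 100 µM. Their shares called were 27.8%, above that of all genes, and 22.2%, close to it. NCOA7, a TLDc protein that binds the pump, fell from 42.9 ± 5.65 CPM to 19.8 ± 1.63 at 50 µM (2.17-fold, edgeR adjusted p = 0.00240) and 20.5 ± 1.07 at 100 µM (2.09-fold, edgeR adjusted p = 0.000648; SD, n = 3). DMXL2, of the complex that assembles the pump, fell at both doses (1.43-fold and 1.31-fold), TLDC2 fell 1.70-fold at 50 µM, and the accessory subunit ATP6AP2 rose 1.23-fold at 100 µM.

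Of 43 further autophagy genes 3 rose and 3 fell at 50 µM, and 5 rose and 2 fell at 100 µM. The shares called in either direction were 14% and 16.3%, against 11.6% and 21% of all genes. The receptor OPTN rose 1.45-fold at 100 µM, from 108 ± 7.21 to 156 ± 5.94 CPM (SD, n = 3; edgeR adjusted p = 0.00182), and was 1.57-fold higher than at 50 µM (edgeR adjusted p = 0.00315), while the receptor SQSTM1 fell. The ATG8 genes MAP1LC3A at 100 µM (1.95-fold) and GABARAP at 50 µM (1.25-fold) rose, and ATG3, the conjugating enzyme of ATG8 proteins, fell 1.38-fold at 100 µM. At 50 µM TMEM41B rose 1.41-fold, and PIK3R4, a subunit of the class III lipid kinase, fell 1.30-fold. Among 40 genes of mTORC1, Ragulator and TFEB control 2 rose and 2 fell at 50 µM and 3 rose and 3 fell at 100 µM. That was 10% and 15% called, below the shares of all genes. LAMTOR2 rose at both doses (1.32-fold and 1.29-fold) and RRAGA at 100 µM (1.46-fold), the kinase subunit PRKAA2 (1.33-fold) and FNIP2 (1.65-fold) fell at 50 µM, and SEH1L fell at 100 µM against the control (1.34-fold) and against 50 µM (1.25-fold).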

How the data were processed

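RNA of 9 HCCLM3 libraries was captured with oligo(dT) and treated with a duplex-specific nuclease, per the labels' protocols. The submitters' processing notes name HISAT2 2.0.4, Bowtie2 2.2.5, RSEM 1.2.12 and the build GRCh38.p13 without roles. No label or header gives a strand setting. The authors deposited expected counts (estimated, 26.84% of them whole within 1e-06) and TPM per gene and library, per the file headers. The authors' deposited table also held DESeq2 log2 fold changes and q-values: of the members 5 were higher and 16 lower at 50 µM, 9 and 4 at 100 µM, and 4 and 0 between the doses at a q-value under 0.05, where 22.4%, 11.2% and 5.86% of all genes with a q-value passed in either direction. Deposited FPKM and normalised read counts were not used.

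Expected counts were rounded. Genes with low counts were removed (minimum count 10, minimum total 15, in a share of 0.7 of the smallest group), which took out 4660 genes holding 0.042% of the counts. All 9 libraries entered 1 quasi-likelihood fit in edgeR 4.0.16 (limma 3.58.1, R 4.3.3) with TMM scaling and 3 contrasts, and p-values were adjusted by the Benjamini-Hochberg method over 12832 genes, with a threshold of 0.05. The biological coefficient of variation was 14.4%, and the median SE of a log2 fold change was 0.134. The procedure was also run on simulated counts. These were drawn independently in each library and had no libraries that stood apart, so they do not cover that feature of the data. Alternatives were DESeq2 1.42.0, limma on log2 TPM, other scaling and filters, fits of 2 groups, a replicate block, and fits without 1 or 2 libraries. A library order (50 µM below the others) was looked for after the values were seen.

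The rule for the members names genes and uses no measured value, but members and lists were chosen with earlier results of these data known. Every member called in a comparison is described, and of each other list up to 3 called genes per comparison are named: those with the smallest adjusted p among genes that average 5 CPM or more and whose groups do not overlap. Exons of 25 members overlap another gene in the annotation (GENCODE 29), 21 of them on the other strand. Without the strand setting, reads of such pairs may not have been told apart. Called members with an overlap on either strand were CD68, TPP1, GLB1, NAGLU, LIPA, NPC2, ATP6V1A, SQSTM1, GABARAPL1 and UVRAG. Promoters came from RefSeq.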

Additional observations from a re-analysis of the deposited data

How the results depend on the processing

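The median log2 difference of the members kept its sign under every alternative run. It ran from -0.18 to -0.08 at 50 µM, 0.0021 to 0.18 at 100 µM and 0.13 to 0.26 between the doses. All alternatives reused these 9 libraries, and 0.0021 is close to no difference. The pooled SD between replicates of the members' median log2 CPM was 0.123. That is about the size of the medians against the control, -0.12 at 50 µM and 0.11 at 100 µM. Counts of calls moved more. Each of the 25 calls of a member in a comparison was followed under 19 alternatives. Of these 475 values 337 kept the call, 138 lost it and 0 turned direction. Picking called members makes a turn unlikely, and members that were not called could turn. CTSD at 100 µM against the control went from 0.11 with all 9 libraries to -0.05 without 100 µM replicate 2. Counts are given as members higher, members lower and other pathway genes called; with all 9 libraries they were 3, 5 and 29 at 50 µM, 11, 5 and 35 at 100 µM, and 1, 0 and 3 between the doses. DESeq2 gave 5, 8 and 46 at 50 µM, and 5 members higher and 15 other genes between the doses. Scaling by library totals alone and a minimum count of 50 each gave 5 other genes between the doses. Fits of only 2 groups gave 6, 12 and 61 at 50 µM, 3, 2 and 18 at 100 µM, and 1 other gene between the doses. limma on log2(TPM + 1) gave 1 member higher and 3 lower at 50 µM and 5 higher at 100 µM, and with 0.1 added 3 lower and 5 higher. The limma counts have no share of all genes beside them here, so they cannot be read as a change particular to the members. The same holds for the counts with library totals alone and with a minimum count of 50. Leaving out both libraries that stood apart lowers the measured spread and gave 8, 25 and 108 at 50 µM, 22, 13 and 96 at 100 µM, and 29, 3 and 98 between the doses. Leaving out 1 library at a time gave 0 to 6 higher, 0 to 15 lower (all genes 0.358% to 17.8% and 0.327% to 19.4%) and 2 to 71 others at 50 µM, 4 to 18, 2 to 8 and 18 to 59 at 100 µM, and 0 to 17, 0 to 0 and 1 to 60 between the doses. The cause of these changes was not tested.

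Deviations of same-numbered libraries from their group means had correlations from -0.54 to 0.39, the highest for replicate 2 of the control and 100 µM. Control replicate 1 and 100 µM replicate 3 weigh on these values. They therefore cannot show whether the replicate numbers pair the samples. With the replicate number as a block the counts were 0, 2 and 6 at 50 µM, 6 members higher and 3 lower at 100 µM, and 0 members higher and 1 other gene between the doses. With 3 libraries a group, differences near the median SE could not be called.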
